A study of Homo sapiens with 8 samples.

Results

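The calcium/calmodulin-dependent kinases (CaM kinases) were followed here through 10 genes, CAMK2A, CAMK2B, CAMK2D, CAMK2G, CAMK4, CAMK1, CAMK1D, CAMKK1, CAMKK2 and CAMKV, out of 60676 gene identifiers in the count table. The genes were selected on their function and with the levels of these same 8 libraries in view, and which of those values weighed in the choice is not recorded. Every comparison of the media therefore counts as used, and their values in the 4 media are given as a description, with a fold change and its standard error and without a p-value. 9 of the 10 passed the filter on low counts and were among the 16680 genes tested, and CAMK2B did not pass it. Members were matched by symbol to their Ensembl identifiers, and no measured value served as a threshold.

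The cells were IGR-N91, a human neuroblastoma line, grown as aggregates in hanging drops. One group was kept in control medium, and the other 3 received medium conditioned by embryonic ganglia: sympathetic ganglia of chick at embryonic day 8 (E8-cSGcm), dorsal root ganglia of chick at embryonic day 8 (E8-cDRGcm) or sympathetic ganglia of mouse at E15.5 (E15.5-mSGcm). Neuroblastoma mainly affects sympathoadrenal tissues, of which sympathetic ganglia are a part, and dorsal root ganglia hold sensory neurons. Aggregates were collected after 20 h according to the sample protocol, or 24 h according to the series text. All 4 groups used the same line, and each group had 2 libraries of total RNA. The samples come from a single line, the mouse medium differs from the chick sympathetic medium in species and stage at once, and a change in the share of cells in a given state cannot be told apart here from a change in RNA per cell.

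Calcium entering a cell binds calmodulin, and calcium-bound calmodulin switches on the CaM kinases by displacing an inhibitory segment from their catalytic site. CaMKII, built of alpha, beta, gamma and delta chains encoded by CAMK2A, CAMK2B, CAMK2G and CAMK2D, assembles into a ring-like holoenzyme whose chains phosphorylate one another and so stay active after calcium has dropped. CaMKI (CAMK1, CAMK1D) and CaMKIV (CAMK4) work in a cascade in which the upstream kinases CAMKK1 and CAMKK2 phosphorylate their activation loop, and CaMKIV acts largely in the nucleus, where CREB is one of its substrates. CAMKV is a related neuronal protein that binds calmodulin but lacks kinase activity. In neurons the alpha and beta chains of CaMKII predominate and are tied to synaptic plasticity, while the gamma and delta chains are found in most tissues.

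Total counts ran from 7930765 to 15060744 per library, and both E15.5-mSGcm libraries were the shallowest, with a mean of 8434081 against 13133988 to 13993440 in the other groups. A gene with 3 counts stood at 0.199 to 0.378 CPM (counts scaled to a common library size by trimmed means of M values), the lowest level read as present. Of 10 noradrenergic neuroblastoma markers 9 had counts and CHGA had none, and their summed level lay at 6681.9 and 6833.4 CPM in control, 5171.4 to 5484.0 in E8-cSGcm, 3979.7 to 4063.0 in E8-cDRGcm and 4147.4 to 4315.5 in E15.5-mSGcm. That sum is mostly MYCN, which averaged 4644.7 CPM in control, 3402.0 in E8-cSGcm, 2495.8 in E8-cDRGcm and 2638.0 in E15.5-mSGcm, and other members ran otherwise, such as DBH at 37.5, 17.3, 9.62 and 51.8 CPM in the same order. The 7 glial markers summed to 1.25 to 4.25 CPM, with SOX10, FOXD3 and FABP7 at 0 in every library, the 4 leukocyte markers to at most 0.769 CPM with AIF1 at 0, and the 3 endothelial markers found to at most 1.07 CPM with CDH5 at 0. The 7 sensory neuron markers summed to 18.8 to 32.4 CPM, mostly NTRK2, with SCN10A at 0. The 6 fibroblast markers, all with counts, summed to 158 to 223 CPM. In E15.5-mSGcm PDGFRA averaged 9.83 CPM against 0.798 in control, DCN 13.6 against 2.76 and COL1A2 12.5 against 3.11. LUM averaged 99.7 against 52.2 there and COL3A1 2.17 against 1.26. Only COL1A1, the largest part of the sum in control, was lower, at 30.2 against 106. The part of these lists in the results on the kinases was not tested.

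The DNA just upstream of CAMK2A, CAMK2G and CAMK1, the 3 kinase genes whose group means spread most over the 4 media, is shown first, so that the DNA can be set beside their levels. Each line gives the 250 bases before the RefSeq start of the gene on GRCh38.p14, read 5′ to 3′ on the gene's strand, and capitals mark matches to any motif searched.
CAMK2A, chr5:150289774-150290023, minus strand: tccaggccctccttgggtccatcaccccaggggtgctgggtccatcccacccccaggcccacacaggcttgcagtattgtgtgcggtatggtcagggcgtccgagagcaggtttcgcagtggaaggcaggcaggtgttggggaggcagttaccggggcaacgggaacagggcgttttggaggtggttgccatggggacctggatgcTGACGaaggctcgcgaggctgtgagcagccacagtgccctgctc
CAMK2G, chr10:73874556-73874805, minus strand: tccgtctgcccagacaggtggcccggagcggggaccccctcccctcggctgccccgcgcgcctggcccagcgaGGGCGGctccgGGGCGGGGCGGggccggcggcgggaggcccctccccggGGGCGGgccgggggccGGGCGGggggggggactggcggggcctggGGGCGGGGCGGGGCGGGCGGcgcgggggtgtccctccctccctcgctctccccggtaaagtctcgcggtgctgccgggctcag
CAMK1, chr3:9769948-9770197, minus strand: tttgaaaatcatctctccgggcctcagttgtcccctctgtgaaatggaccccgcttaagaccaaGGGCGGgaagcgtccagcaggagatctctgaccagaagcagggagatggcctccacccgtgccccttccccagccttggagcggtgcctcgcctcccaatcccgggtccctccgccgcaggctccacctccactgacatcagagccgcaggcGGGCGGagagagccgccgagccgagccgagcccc
The 10 genes had 13 such windows, with several starts for CAMK4 and CAMKK1. On both strands, the full cAMP response element TGACGTCA, to which CREB binds, was in 0 of the 13 and in 1.65% of 35116 human promoter windows of that length. Its core TGACG, which lies inside the full element, was in the CAMK2A window alone, at position -44, and in 21.2% of all windows. The GC box GGGCGG was in 7 of the 13 windows and in 42.6% of all, with 9 partly overlapping matches in the CAMK2G window, whose GC content was 84.8%, and 2 in that of CAMK1 at 66.0%. The CAMK2A window, at 64.4% GC, held no GC box, and the median over all windows was 58.0%. The C/EBP-ATF response element TGATGNAAT (0.888% of all windows), the E-box CACGTG (6.34%) and TATAAA (10.7%) were in 0 of the 13, and the AP-1 site TGANTCA (6.57%) was in 1, of CAMK4. A match is only a run of letters, and which start these cells use was not measured.

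Per length of exon, CAMKV and CAMK4 were the most abundant members in control medium, at 36.4 ± 2.52 and 32 ± 0.5 RPKM (CPM divided by the length of all exons in kilobases, SD, n = 2). CAMKK2 at 9.18 ± 0.0772 RPKM and CAMK2D at 8.76 ± 0.309 followed, then CAMK1D at 5.01 ± 0.124, CAMK2G at 3.55 ± 0.18, CAMK1 at 2.81 ± 0.409, CAMKK1 at 2.08 ± 0.182 and CAMK2A at 1.14 ± 0.237. CAMK2B was last, at 0.0542 ± 0.0446 RPKM. The place of CAMK1 is uncertain, since 80.1% of its exonic bases are shared with OGG1 on the opposite strand. The strand setting of the counting is not given. With the longest transcript as the length in place of all exons, CAMK2D (18.5 RPKM) passed CAMKK2 (11.8) and CAMK2G (7.65) passed CAMK1D (5.38), while the other members kept their places. In control medium the CaMKII messages were thus mostly those of the delta and gamma chains. The alpha message was low and the beta message near the limit of counting, and protein was not measured.

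**Figure D1:**
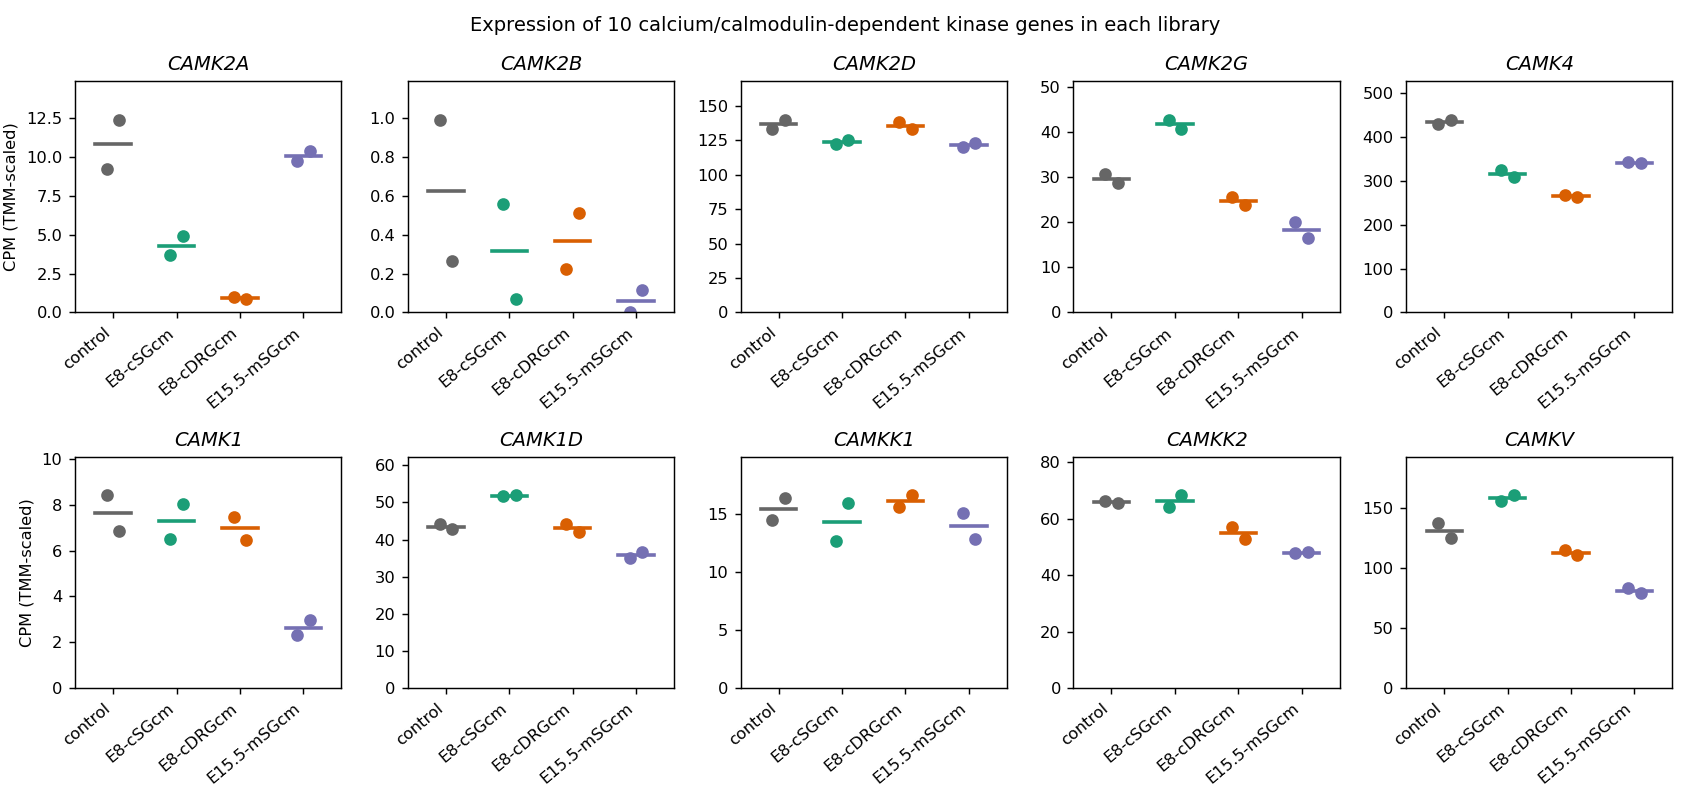
Level of each gene in CPM (vertical axis from 0, its scale differing between panels) in the 4 media, with a point for each of the 2 libraries and a line at their mean. CAMK2A is lowest in E8-cDRGcm at 0.972 and 0.879 CPM, CAMK1 in E15.5-mSGcm at 2.31 and 2.97, and the highest CAMK2G levels are in E8-cSGcm at 42.7 and 40.7.

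CAMK2A encodes the alpha chain of CaMKII, the form most tied to synapses (ENSG00000070808, GRCh37 chr5:149599054-149669656). It stood at 9.25 and 12.4 CPM in control, 3.69 and 4.9 in E8-cSGcm, 0.972 and 0.879 in E8-cDRGcm, and 9.74 and 10.4 in E15.5-mSGcm. These rested on 121 and 189 reads in control, 46 and 70 in E8-cSGcm, 13 and 12 in E8-cDRGcm, and 76 and 91 in E15.5-mSGcm. The libraries of both chick media lay below both controls, those of E8-cDRGcm below those of E8-cSGcm, and those of the mouse medium inside the range of control. Against control the log2 fold change was -1.33 ± 0.184 (SE) in E8-cSGcm, 2.52-fold lower, and -3.55 ± 0.252 in E8-cDRGcm, 11.7-fold lower. In E15.5-mSGcm it was -0.11 ± 0.173, and without the second control library its sign changed. Between the chick media the level in E8-cDRGcm was 4.64-fold below that in E8-cSGcm (log2 fold change -2.21 ± 0.303). This was the widest spread among the members, 2.61 on the log2(CPM + 1) scale between the highest and lowest group mean.

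CAMK2G encodes the gamma chain (ENSG00000148660, GRCh37 chr10:75572259-75634349). It stood at 30.7 and 28.6 CPM in control, 42.7 and 40.7 in E8-cSGcm, 25.6 and 23.9 in E8-cDRGcm, and 20.1 and 16.5 in E15.5-mSGcm. No group overlapped another, and the order was E8-cSGcm, control, E8-cDRGcm and E15.5-mSGcm. Against control the log2 fold changes were 0.49 ± 0.0865, -0.26 ± 0.0931 and -0.70 ± 0.109 in E8-cSGcm, E8-cDRGcm and E15.5-mSGcm. The sympathetic media of the 2 species thus lay on opposite sides of control, 2.29-fold apart. Leaving out the second E15.5-mSGcm library, the difference from control was -0.57, short of a 1.5-fold change (0.58 on the log2 scale).

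CAMK2D, the delta chain, varied least of the 9 tested members, over 0.17 on the log2(CPM + 1) scale (ENSG00000145349, GRCh37 chr4:114339210-114683083). It stood at 133 and 140 CPM in control, 122 and 125 in E8-cSGcm, 138 and 133 in E8-cDRGcm, and 120 and 123 in E15.5-mSGcm. The E8-cDRGcm libraries overlapped control, and the other media lay just below it, by -0.15 ± 0.0544 and -0.17 ± 0.0571 on the log2 scale. CAMK2B, the beta chain (ENSG00000058404, GRCh37 chr7:44249618-44374176), had 13 and 4 reads in control, 7 and 1 in E8-cSGcm, 3 and 7 in E8-cDRGcm, and 0 and 1 in E15.5-mSGcm. The chick media overlapped control, and both E15.5-mSGcm libraries lay below it, at 0 and 0.114 CPM against 0.994 and 0.263. The counts are few, with exact Poisson 95% intervals (counting error only) of 6.92 to 22.2 and 1.09 to 10.2 reads in control and of 0 to 3.69 and 0.0253 to 5.57 in E15.5-mSGcm. Of its exonic bases 20.0% were shared with YKT6 on the opposite strand.

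Set per length, the makeup of CaMKII messages shifted while their sum moved less. Summed over the 4 chain genes the level was 13.5 ± 0.321 RPKM in control, 13.4 ± 0.0353 in E8-cSGcm, 11.7 ± 0.364 in E8-cDRGcm and 11 ± 0.0918 in E15.5-mSGcm (SD, n = 2). CAMK2A made up 8.44% ± 1.55 of that sum in control, 3.39% ± 0.668 in E8-cSGcm, 0.831% ± 0.0335 in E8-cDRGcm and 9.62% ± 0.525 in E15.5-mSGcm. CAMK2G made up 26.3% ± 1.96, 37.4% ± 1.4, 25.2% ± 0.443 and 19.8% ± 2.64 in the same order, and CAMK2D 64.8% ± 0.747, 59% ± 0.956, 73.7% ± 0.318 and 70.5% ± 2.05. CAMK2D was the largest share in each library, and the alpha share was lowest in both E8-cDRGcm libraries. With the longest transcript as the length the alpha share read 7.83%, 3.12%, 0.766% and 8.94%.

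**Figure D2:**
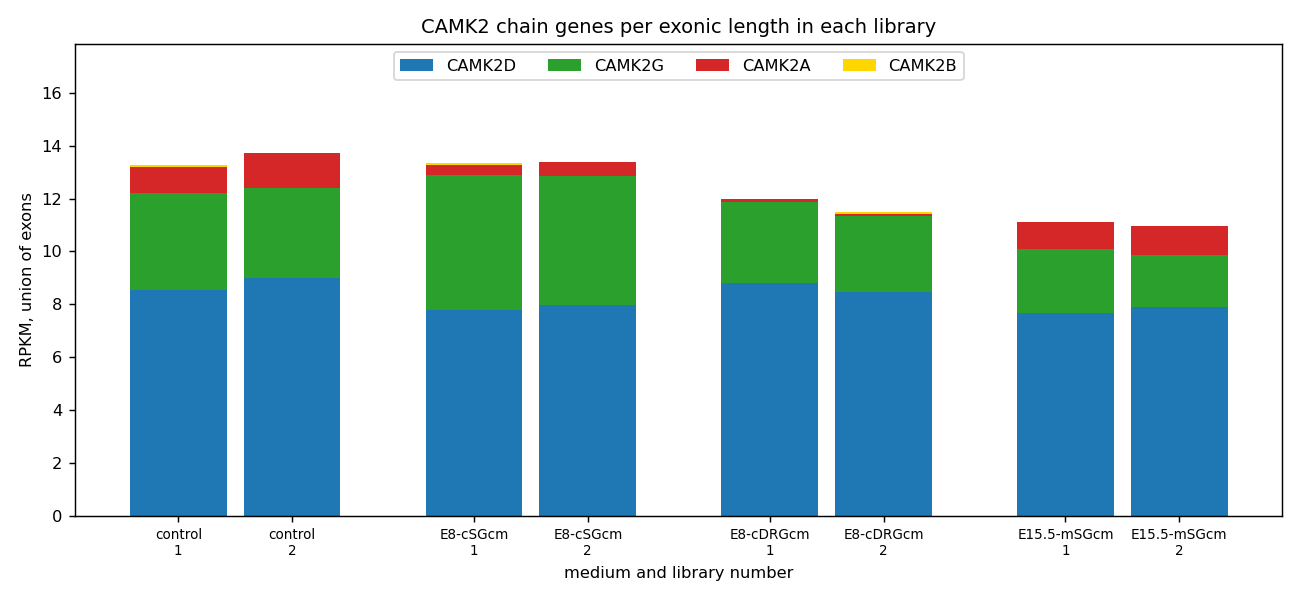
Stacked RPKM (union of exons) of the 4 CaMKII chain genes, a bar for each of the 8 libraries. CAMK2D fills most of each bar, CAMK2A is a sliver in E8-cDRGcm (0.831% of the sum on average) and CAMK2G is tallest in E8-cSGcm (37.4%).

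CAMK4 encodes CaMKIV, the nuclear kinase of the cascade (ENSG00000152495, GRCh37 chr5:110559351-110830584), and had the most reads of any member. It stood at 431 and 440 CPM in control, 324 and 309 in E8-cSGcm, 268 and 264 in E8-cDRGcm, and 343 and 341 in E15.5-mSGcm. All 6 libraries of conditioned medium lay below both controls, E8-cDRGcm lowest, and no group overlapped another. The log2 fold changes were -0.46 ± 0.0474, -0.71 ± 0.0478 and -0.35 ± 0.0483, or 1.38-fold, 1.64-fold and 1.27-fold lower, in E8-cSGcm, E8-cDRGcm and E15.5-mSGcm. It was the one member other than CAMK2A with its lowest level in E8-cDRGcm.

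CAMK1 encodes CaMKI alpha, a cytosolic kinase (ENSG00000134072, GRCh37 chr3:9799031-9811676). It stood at 8.41 and 6.84 CPM in control, 6.49 and 8.05 in E8-cSGcm, 7.48 and 6.45 in E8-cDRGcm, and 2.31 and 2.97 in E15.5-mSGcm, the last from 18 and 26 reads. The chick media overlapped control, and both mouse-medium libraries lay below every other library. The log2 fold change in E15.5-mSGcm was -1.51 ± 0.24, 2.85-fold lower, against -0.05 ± 0.173 in E8-cSGcm and -0.12 ± 0.174 in E8-cDRGcm. In the GRCh37 annotation CAMK1 shares 2175 of its 2715 exonic bases (80.1%) with the DNA repair gene OGG1 on the opposite strand. The library kit keeps the strand, but the strand setting of the counting is not given in the sources used here, so reads of this pair may not have been told apart. OGG1 averaged 13.3 CPM in control and 11.4 in E15.5-mSGcm, a log2 fold change of -0.22 that did not pass the test (edgeR adjusted p = 0.242).

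CAMK1D, encoding CaMKI delta (ENSG00000183049, GRCh37 chr10:12391546-12877545), stood at 44.3 and 42.7 CPM in control, 51.6 and 51.9 in E8-cSGcm, 44.1 and 42 in E8-cDRGcm, and 35.1 and 36.6 in E15.5-mSGcm. Both E8-cSGcm libraries lay above control and both E15.5-mSGcm libraries below it, at log2 fold changes of 0.25 ± 0.073 and -0.28 ± 0.0833, and E8-cDRGcm overlapped control at -0.01 ± 0.0746. The upstream kinase CAMKK2 (ENSG00000110931, GRCh37 chr12:121675478-121736111) stood at 66.2 and 65.4 CPM in control, 64.1 and 68.3 in E8-cSGcm, 57.2 and 53 in E8-cDRGcm, and 47.8 and 48.1 in E15.5-mSGcm. It overlapped control in E8-cSGcm and lay below it in the other media, by -0.26 ± 0.0679 and -0.46 ± 0.0747. CAMKK1, its relative (ENSG00000004660, GRCh37 chr17:3763609-3798185), stood at 14.5 and 16.4 CPM in control, 12.7 and 15.9 in E8-cSGcm, 15.6 and 16.6 in E8-cDRGcm, and 15.1 and 12.8 in E15.5-mSGcm. Its libraries overlapped control in each medium, with log2 fold changes from -0.16 ± 0.138 to 0.05 ± 0.121.

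CAMKV, the calmodulin-binding protein without kinase activity (ENSG00000164076, GRCh37 chr3:49895421-49907368), stood at 138 and 125 CPM in control, 156 and 161 in E8-cSGcm, 115 and 111 in E8-cDRGcm, and 83.4 and 79.4 in E15.5-mSGcm. It had the order of CAMK2G, with E8-cSGcm above control, the other media below, and no overlap between groups. The log2 fold changes against control were 0.27 ± 0.056, -0.22 ± 0.0573 and -0.69 ± 0.0628 in E8-cSGcm, E8-cDRGcm and E15.5-mSGcm, the last 1.62-fold lower. An offset for GC content and length moved the last to -0.54, short of 1.5-fold.

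**Figure D3:**
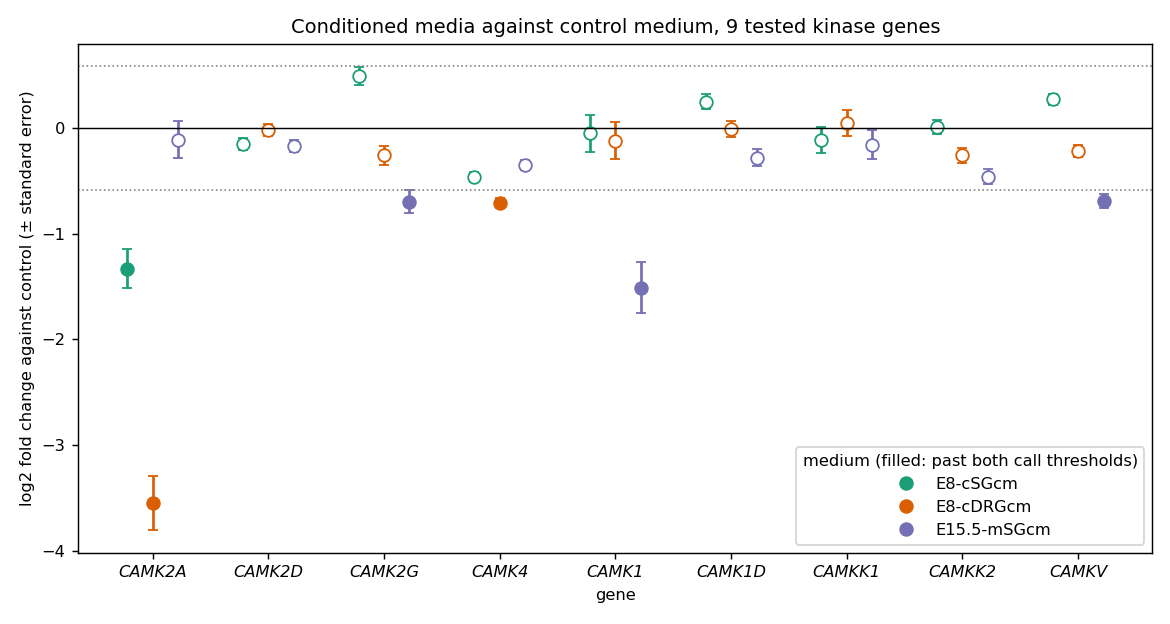
Log2 fold change against control (points) with its standard error (bars) for the 9 tested genes in the 3 conditioned media. Filled points pass an adjusted p of 0.05 and a 1.5-fold change, and dotted lines mark 1.5-fold. CAMK2A in E8-cDRGcm (-3.55) and CAMK1 in E15.5-mSGcm (-1.51) lie farthest below 0.

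A gene was called where its edgeR adjusted p over all tested genes was under 0.05 and its change at least 1.5-fold. In E8-cSGcm 1 of 9 members was called, CAMK2A, lower, where 8.59% of all tested genes were called. In E8-cDRGcm 2 of 9 were called, CAMK2A and CAMK4, both lower, where 20.7% of all were called. In E15.5-mSGcm 3 of 9 were called, CAMK2G, CAMK1 and CAMKV, all lower, where 13.9% of all were called. Those called lower were 3.86%, 10.9% and 7.27% of all tested genes in the same order. At the adjusted p alone, 6, 5 and 7 members passed, where 31.3%, 49.5% and 37.8% of all genes did. The libraries of 6, 5 and 7 tested members did not overlap control, where those of 63.6%, 73.5% and 68.3% of all genes did not. Between the media, 2 members were called in E8-cDRGcm against E8-cSGcm (7.49% of all genes), 4 in E15.5-mSGcm against E8-cSGcm (22.3%) and 2 in E15.5-mSGcm against E8-cDRGcm (26.2%). At the adjusted p alone these were 6, 6 and 8, where 30.2%, 49.8% and 52.6% of all genes passed. The 3 comparisons with control share the control libraries, and since the members were proposed with these contrasts in view nothing is read from the counts. No member was called higher than control in any medium, and CAMK2B was untested. Of the 16680 tested genes 789, 1636 and 1109 were called higher in E8-cSGcm, E8-cDRGcm and E15.5-mSGcm.

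Genes whose levels ran most like those of the 3 widest-ranging members were found by Pearson's r over the 8 libraries on log2(CPM + 1), as a description, since the libraries share their groups and depth. For CAMK2A they were LINC01441 (r = 0.9939), BEX3 (0.9930) and the anion exchanger SLC4A2 (0.9916). LINC01441, a long noncoding RNA, averaged 42.3 CPM in control, 15.2 in E8-cSGcm, 3.77 in E8-cDRGcm and 34.7 in E15.5-mSGcm. BEX3 averaged 351, 254, 175 and 342 CPM and SLC4A2 216, 159, 111 and 211 in the same order of media. Both ranged less than CAMK2A, since r does not measure the size of a change. For CAMK1 they were SLC18A2, the vesicular monoamine transporter (0.9902), TSPAN33 (0.9827) and DNAL4 (0.9820), and SLC18A2 averaged 10.1, 9.24, 8.47 and 0.898 CPM in the same order of media. For CAMK2G they were LINC02475 (0.9906), TEDC2 (0.9897) and the replication helicase subunit MCM6 (0.9876), which averaged 229, 270, 212 and 180 CPM.

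The genes around the kinases were taken from 7 lists holding 112 genes, 94 of them tested, that were also drawn up with earlier results of these libraries known. In E8-cSGcm 8 of the 94 were called higher and 4 lower (12.8%, beside 8.59% of all genes). In E8-cDRGcm 15 were called higher and 7 lower (23.4%, beside 20.7%), and in E15.5-mSGcm 10 higher and 10 lower (21.3%, beside 13.9%). The median log2 fold changes of the 94 were 0.01, 0.11 and 0.03, beside 0.01, 0.01 and -0.02 for all tested genes. The counts of each list below are to be set beside the same shares, 8.59%, 20.7% and 13.9% of all tested genes. Nothing is read from the count of a list alone. The adjusted p-values below are those of edgeR's quasi-likelihood test over all tested genes, with n = 2 libraries a group. The named genes were picked by their fold changes in these same libraries. Their p-values therefore describe single genes, are not independent support, and nothing about a list is read from them.

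Among 7 tested genes for calmodulin and the proteins that sequester it, 2 rose in E8-cSGcm, 1 rose and 1 fell in E8-cDRGcm and 1 fell in E15.5-mSGcm. CALM2, one of the genes for calmodulin itself, stood at 579 and 574 CPM in control and 377 and 352 in E15.5-mSGcm, where it fell (log2 fold change -0.66 ± 0.0494, adjusted p = 1.32e-13). GAP43, a growth cone protein that binds calmodulin, stood at 49.6 and 48.2 CPM in control, 74.6 and 79.8 in E8-cSGcm, 87.4 and 82.4 in E8-cDRGcm, and 35.2 and 33.9 in E15.5-mSGcm. It rose in both chick media (log2 fold changes 0.66 ± 0.0675, adjusted p = 7.37e-10, and 0.80 ± 0.0668, adjusted p = 1.34e-12). In E15.5-mSGcm its log2 fold change of -0.50 was short of 1.5-fold (adjusted p = 5.5e-06), and it was lower there than in E8-cDRGcm by a log2 fold change of -1.30 (adjusted p = 5.58e-17). MARCKSL1, which also binds calmodulin, fell in E8-cDRGcm (-0.71 ± 0.0506, adjusted p = 1.74e-14). Neurogranin, NRGN, was called in E8-cSGcm (0.73 ± 0.209, adjusted p = 0.00668), but DESeq2 gave it an adjusted p of 0.0817, and without the second control library it was 0.111.

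Of the 9 inhibitors and phosphatases of CaM kinases, all tested, 1 rose in E8-cSGcm, 2 in E8-cDRGcm and 1 in E15.5-mSGcm, and none was called lower than control. CAMK2N1, a protein inhibitor of CaMKII, stood at 6.73 and 6.25 CPM in control, 12.3 and 11.4 in E8-cSGcm, 14.5 and 15.9 in E8-cDRGcm, and 9.86 and 9.82 in E15.5-mSGcm. All conditioned libraries lay above both controls, those of E8-cDRGcm highest, in the medium where CAMK2A was lowest. Its log2 fold changes were 0.87 ± 0.145 (adjusted p = 1.16e-05), 1.23 ± 0.139 (adjusted p = 1.84e-09) and 0.60 ± 0.166 (adjusted p = 0.00372), and the last dropped to 0.54, below 1.5-fold, without the second control library. PPM1E, a phosphatase that acts on CaM kinases, stood at 172 and 170 CPM in control and 314 and 300 in E8-cDRGcm (0.85 ± 0.0505, adjusted p = 1.09e-16). Its changes in E8-cSGcm (0.50) and E15.5-mSGcm (0.30) passed the adjusted p but were under 1.5-fold.

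The next list held other kinases under calmodulin's control and subunits of such kinases. Of its 12 tested genes 0 were called in E8-cSGcm, 2 fell in E8-cDRGcm and 2 fell in E15.5-mSGcm. MYLK3, a myosin light chain kinase, stood at 25.5 and 25.1 CPM in control, 12.6 and 14.7 in E8-cDRGcm and 5.51 and 7.77 in E15.5-mSGcm (-0.89 ± 0.111, adjusted p = 1.6e-08, and -1.92 ± 0.145, adjusted p = 1.71e-13). MYLK, its smooth muscle relative, fell in E15.5-mSGcm (-1.57 ± 0.187, adjusted p = 4.06e-08), as 13.6 and 18.7 CPM in control against 4.1 and 6.74. CAMK1G, encoding CaMKI gamma, was called lower in E8-cDRGcm (-1.25 ± 0.436, adjusted p = 0.0168) from 6 and 12 reads against 22 and 23. DESeq2 gave it an adjusted p of 0.0873, and without the first E8-cDRGcm library it was 0.182 and without the first control library 0.0738.

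Calcineurin is the calmodulin-dependent phosphatase that often opposes the CaM kinases, and NFAT factors are its targets. Among 12 tested genes of this list 1 rose and 1 fell in E8-cSGcm, 2 rose and 2 fell in E8-cDRGcm and 3 rose in E15.5-mSGcm. NFATC1 had 5 and 7 reads in control, 1 and 0 in E8-cSGcm, 0 and 0 in E8-cDRGcm, and 13 and 14 in E15.5-mSGcm, so it was lower in the chick media and higher in the mouse medium. Against a floor of 3 reads per library it was at least 1.9-fold lower in E8-cDRGcm than in control (adjusted p = 0.00242). The call in E8-cSGcm (adjusted p = 0.0228) was lost on leaving out either control library or the second E8-cSGcm library, with adjusted p-values of 0.0563 to 0.217. That in E15.5-mSGcm (1.92 ± 0.548, adjusted p = 0.00539) was lost without the first control library (0.0539) or the second E15.5-mSGcm library (0.0528), and with DESeq2 (0.0818). NFATC2 had 0 and 3 reads in control, 8 and 11 in E8-cSGcm, 27 and 23 in E8-cDRGcm, and 5 and 7 in E15.5-mSGcm. Its ratio to control was 6.7 (95% counting interval 1.97 to 35.3) in E8-cSGcm, 17.4 (5.64 to 87.4) in E8-cDRGcm and 6.83 (1.84 to 37.7) in E15.5-mSGcm. Without the first control library the calls in E8-cSGcm and E15.5-mSGcm were lost (adjusted p = 0.114 and 0.123), as they were without the second library of the medium itself (0.0548 and 0.0972). CABIN1, a calcineurin inhibitor, rose in E8-cDRGcm (0.66 ± 0.0564, adjusted p = 2.31e-12), and NFATC4 fell there (-0.63 ± 0.109, adjusted p = 8.58e-06), by -0.56 without the first control library. The third gene called higher in E15.5-mSGcm was PPP3R2, a calcineurin subunit.

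Of 19 tested substrates of CaM kinases 1 rose in E8-cSGcm, 2 rose in E8-cDRGcm, and 1 rose and 2 fell in E15.5-mSGcm, so that most did not pass in any medium. CREM, a relative of CREB and also a CREB target, stood at 9.02 and 7.17 CPM in control, 13.1 and 12.7 in E8-cSGcm, 21.8 and 18.6 in E8-cDRGcm, and 19.1 and 14.5 in E15.5-mSGcm. It rose in all 3 media (0.69 ± 0.147, adjusted p = 0.000384, then 1.33 ± 0.136, adjusted p = 2.12e-10, and 1.05 ± 0.154, adjusted p = 7.52e-07), though in E8-cSGcm by 0.52 without the second control library and by 0.41 with libraries thinned to equal depth (adjusted p = 0.0829). SYN1, the synaptic vesicle protein synapsin, rose in E8-cDRGcm by 0.59 ± 0.0797 (adjusted p = 8.36e-08), and by 0.55 without the second E8-cDRGcm library. AKT1 and HDAC5 fell in E15.5-mSGcm, both at -0.61 (adjusted p = 2.17e-11 and 4.69e-07), and an offset for GC content and length moved them to -0.43 and -0.42. AKT1 also stood at -0.57 without the first control library, and HDAC5 at -0.57 without the second E15.5-mSGcm library.

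Of 19 tested genes that release, refill or extrude calcium 1 fell in E8-cSGcm, 2 rose and 2 fell in E8-cDRGcm, and 2 rose and 2 fell in E15.5-mSGcm. SLC8A3, a sodium/calcium exchanger, fell in all 3 media, from 94 and 97.7 CPM in control to 53.8 to 64.5 in the conditioned libraries (-0.62, -0.77 and -0.73, adjusted p = 2.38e-09, 5.74e-12 and 2.25e-10), the first at -0.57 without the second E8-cSGcm library. In E8-cDRGcm STIM1, the sensor of store calcium, rose (0.78 ± 0.072, adjusted p = 1.79e-11). Of the plasma membrane calcium pumps, ATP2B4 rose there (0.65 ± 0.0725, adjusted p = 2.51e-09) and ATP2B3 fell (-1.60 ± 0.215, adjusted p = 8.31e-08). In E15.5-mSGcm ITPR1, the store release channel, stood at 164 and 179 CPM against 77.8 and 83.3 in control (1.09 ± 0.0845, adjusted p = 1.84e-08). ATP2A3, a pump that refills stores, stood there at 0.384 and 1.03 CPM against 4.05 and 3.16 (-2.29 ± 0.387, adjusted p = 9.84e-06). Its values rest on 3 and 9 reads in E15.5-mSGcm, the first at the floor of 3, against 53 and 48 in control. ATP2B2 was called higher in E15.5-mSGcm (0.97 ± 0.373, adjusted p = 0.037) on the strength of the second library, 4.34 CPM beside 1.67, and without it the log2 fold change was 0.09. DESeq2 gave ATP2B2 an adjusted p of 0.182, and without the first or the second control library it was 0.161 and 0.0655.

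The last list held genes that neuronal activity switches on through calcium and CREB. Of 18 tested, 4 rose and 2 fell in E8-cSGcm, 7 rose and 0 fell in E8-cDRGcm, and 4 rose and 3 fell in E15.5-mSGcm. In the same order 8.59%, 20.7% and 13.9% of all tested genes were called. The medians of the list were 0.18, 0.50 and 0.17, beside 0.01, 0.01 and -0.02 for all tested genes. VGF, a neuropeptide precursor, stood at 812 and 827 CPM in control, 1664.7 and 1563.4 in E8-cSGcm, 5664.4 and 6262.0 in E8-cDRGcm, and 905 and 889 in E15.5-mSGcm. It rose in the chick media, by 0.98 ± 0.0512 (adjusted p = 1.21e-17) and 2.86 ± 0.0539 (adjusted p = 8.09e-32), the E8-cDRGcm level being the opposite extreme to that of CAMK2A. NR4A3, a nuclear receptor of the early response, followed the same order, from 1.68 and 1.38 CPM in control to 4.49 and 4.55 in E8-cSGcm and 8 and 8.86 in E8-cDRGcm (1.57 ± 0.265, adjusted p = 1.38e-05, and 2.46 ± 0.236, adjusted p = 3.85e-11). NPAS4, a factor induced by calcium entry, had 1 and 6 reads in control and 32 and 35 in E8-cDRGcm (3.28 ± 0.509, adjusted p = 1.25e-06). NPTX2, a synaptic pentraxin, rose in E8-cSGcm (1.00 ± 0.1, adjusted p = 4.93e-10).

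In E15.5-mSGcm BDNF, a neurotrophin, stood at 73.5 and 95.8 CPM against 34.3 and 32.4 in control (1.35 ± 0.0948, adjusted p = 6.37e-12), and it was higher than in E8-cDRGcm by 1.10 (adjusted p = 8.86e-11). The phosphatase gene DUSP1 stood at 21.1 and 24.3 CPM against 9.86 and 9.67 (1.22 ± 0.13, adjusted p = 1.02e-09). VGF, by contrast, was lower in E15.5-mSGcm than in E8-cDRGcm by -2.73 (adjusted p = 4.22e-31) and NR4A3 by -2.42 (adjusted p = 1.35e-09). ARC, a synaptic plasticity gene, fell in E8-cSGcm (-0.64 ± 0.0794, adjusted p = 4.34e-08) and E15.5-mSGcm (-0.88 ± 0.0894, adjusted p = 3.06e-10), the last moving to -0.58, just short of 1.5-fold, under the offset for GC content and length, while its -0.43 in E8-cDRGcm was short of 1.5-fold. EGR1, an early response factor, fell in E8-cSGcm (-1.04 ± 0.19, adjusted p = 4.34e-05) and was called in E15.5-mSGcm (-0.71 ± 0.203, adjusted p = 0.00527), though not without the first control library (-0.53, adjusted p = 0.095) or the second E15.5-mSGcm library (-0.65, adjusted p = 0.0669).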

How the data were processed

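IGR-N91 aggregates in 4 media, 2 libraries each, were sequenced as single 75 bp reads from 50 ng of total RNA (RIN above 8.0) with a stranded total RNA kit. The deposited values are raw read counts per Ensembl gene that the authors made, by the submitters' processing notes, with bcl2fastq 2.17.1.14, cutadapt 1.9.1, TopHat2 2.1.0 and HTSeq 0.11.3. The study's methods name hg19 and the processing notes hg38, and the table holds no coordinates. Gene positions and lengths are from GENCODE lifted to GRCh37, and promoters from RefSeq on GRCh38.p14. The annotation release and the strand setting of the counting are not given in the sources used here.

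Symbols were found for 58611 of 60676 identifiers. All 8 libraries entered a robust quasi-likelihood fit in edgeR 4.0.16 (R 4.3.3) with TMM factors, the default filter on low counts by group and medium as the only term, and p-values were adjusted by Benjamini-Hochberg over 16680 genes. Fold changes are from that fit. Each standard error was derived as the absolute log2 fold change divided by the square root of its F statistic, so it is approximate. CPM uses TMM-scaled library sizes and RPKM the union of exons. Members and lists were chosen with earlier results of these data known. Named were all members, and from each list up to 2 genes called higher with the largest and up to 2 called lower with the most negative log2 fold change in each comparison with control. PPP3R2 was added after its values were seen. Alternatives were DESeq2 1.42.0, other normalizations and filters, thinning, fits of 4 libraries, offsets for GC content and length, the replicate number as a block, and leaving out each library. Labels do not say whether the libraries of a group are separate cultures, so p-values measure the spread between these libraries, which may be technical. Pairs of libraries differed by more than sampling noise (chi-square per gene of 1.78 to 3.64). One glial marker is not reported here. Total counts of 7930765 to 15060744 set the precision, and counting intervals cover counting error only.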

Additional observations from a re-analysis of the deposited data

Results flagged for a closer look

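CAMK2G was picked out because the libraries of one medium lay above, and those of others below, both control libraries, with log2 fold changes of 0.49 in E8-cSGcm, -0.26 in E8-cDRGcm and -0.70 in E15.5-mSGcm. CAMKV did the same, with 0.27, -0.22 and -0.69, and so did CAMK1D in the sympathetic media, with 0.25 in E8-cSGcm and -0.28 in E15.5-mSGcm. For these 3 genes no p-value is given for the difference between media, since they were proposed with these values known.

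NFATC1 was picked out for opposite directions, with fitted log2 fold changes of -3.19 in E8-cSGcm, -5.42 in E8-cDRGcm and 1.92 in E15.5-mSGcm. The difference between media was not tested apart from the libraries in which it was seen. It rests on 13 and 14 reads against at most 1 per library, at least 7.35-fold above E8-cDRGcm with the floor of 3 counts per library, and the fitted values of so low a gene depend on the prior count.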

How the results depend on the processing

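With DESeq2, 952 genes were called in E8-cSGcm against control (1433 with edgeR) and 771 in E8-cDRGcm against E8-cSGcm (1249). At an adjusted p alone, without the 1.5-fold limit, the calls in E8-cSGcm, E8-cDRGcm and E15.5-mSGcm against control were 5213, 8261 and 6305 genes, 6, 5 and 7 members and 42, 52 and 48 listed genes. In E8-cDRGcm against E8-cSGcm, E15.5-mSGcm against E8-cSGcm and E15.5-mSGcm against E8-cDRGcm they were 5037, 8304 and 8767 genes, 6, 6 and 8 members and 38, 56 and 65 listed genes. Leaving out each library in turn gave 13 to 20 called listed genes in E15.5-mSGcm (20 with all libraries), the lowest without the second E15.5-mSGcm library, and 2 to 4 called members. The count of 4 includes CAMK2B, untested with all libraries, which passed the filter there through the first control library, where it was highest, so nothing is read from its call. CAMK2G lost its call in E15.5-mSGcm without the second library of that medium (-0.57), and CAMKV lost its call under offsets for GC content and length (-0.54), with or without the replicate block. CAMK2G against E8-cDRGcm gained a call without the first E15.5-mSGcm library (-0.59), as did CAMK1D against E8-cSGcm with genes kept from 1 count (-0.59). Of 54 log2 fold changes of members, 43 kept their sign under all 18 alternatives, and CAMK2A in E15.5-mSGcm ran from -0.31 to 0.11. The causes were not tested.

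Same-numbered libraries did not deviate together (correlations of -0.0437 to 0.042), so the numbers name libraries only. With the replicate block 1414, 3444 and 2288 genes were called in E8-cSGcm, E8-cDRGcm and E15.5-mSGcm, and 1, 2 and 3 members, as without it. Both E15.5-mSGcm libraries were the shallowest, which limits the low genes CAMK1, CAMK2B, NFATC1 and NFATC2.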
